A study of Mus musculus with 24 samples.

Results

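Among haematopoietic stem cells (HSCs) of an index-sort record, those numbered group 10 were set against those numbered group 9, the groups with the highest and next highest share of G2 and mitosis transcripts. Group 10 held 42 cells and group 9 held 188, out of 1430 recorded cells. Both were chosen by a whole number from 1 to 10 that the authors' record gives for each cell, and the cells were joined by well to the table of unique molecular identifiers (UMIs). How that number was made is not stated, and it may come from the same UMIs. Group 10 was singled out because it had the highest share of G2 and mitosis transcripts, so its late-cycle values are given as a description.

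The cells of both groups, like all the others in the record, were single HSCs from the marrow of mice of the strain -60/DR5-TA-RA-CFP, which carry CFP (cyan fluorescent protein) as a reporter. They were sorted as lineage-negative, Sca-1 and Kit positive (LSK), CD150+ and CD48-, and CFP status was mixed. No treatment, mutation or age separates the 2 groups, and the labels give no age. The series also holds bulk RNA and bisulphite samples of HSCs by CFP brightness, which were not analysed here.

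In a cell that commits to divide, origins of replication are first licensed by loading of the MCM helicase, and genes for the fork and for nucleotide supply are transcribed from late G1 into S phase. Histone genes of the replication-dependent class are transcribed during S phase. From G2 into mitosis, cyclin B with its kinase, the spindle and the anaphase promoting complex take over, and the complex marks cyclin B and other mitotic proteins for destruction. Most adult HSCs are in a resting state outside the cycle.

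Cells lay on 4 sort plates, numbered 2, 3, 4 and 5, and values below are given in that order of plates. Group 10 had 15, 7, 9 and 11 cells, and group 9 had 75, 37, 40 and 36 cells. The UMIs summed per plate were 22253, 13840, 22185 and 19444 in group 10, against 151065, 102926, 98965 and 113322 in group 9. A level is given as CPM, the UMIs of a gene per 1000000 UMIs of that group and plate. The plates were taken as technical replicates of a pooled collection, which could not be checked. The labels list 8 single-cell samples and nothing ties a well to one of them, so p-values measure the spread between plates and say nothing of the spread between mice. A stricter reading takes the table as 1 sample, for which no test exists, and the levels stand under either reading. No well name occurred on more than 1 plate. Plate 2 stood apart for some genes over all its cells: Eef1a1, a translation elongation factor, had 205, 6185, 5115 and 4660.4 CPM, and Top2a had 99.2, 333, 337 and 422 CPM. Ifitm3 had 93.0, 1583, 1445 and 1478 CPM, and Ifitm1, Ly6e and Lyz2 were also far lower on plate 2. The plates were thus not alike for such genes, some of which belong to lists whose shares are given below. The cause was not tested, and results that change without plate 2 are named where they stand.

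Of the 3 genes used to mark cycling cells, Hist1h1b and Top2a had higher means in groups 10 and 9 than in groups 1 to 8, and neither passed between group 10 and group 9. Hist1h1b, a linker histone made in S phase, had 449, 1806, 541 and 3189 CPM in group 10, against 1172, 758, 1506 and 2586 CPM in group 9 (log2 fold change -0.10 ± 0.28 (SE), adjusted p = 0.89 by edgeR's quasi-likelihood test). Top2a, the topoisomerase that untangles chromosomes before they separate, had 225, 1734, 766 and 1491 CPM in group 10, against 165, 855, 808 and 1218 CPM in group 9 (log2 fold change 0.48 ± 0.22 (SE), adjusted p = 0.23). For both genes the groups overlapped. Their means in groups 1 to 8 were 180.0 CPM for Hist1h1b and 145 CPM for Top2a. Hist1h3b, a core histone, gave 7 UMIs in group 10 and 84 in group 9 and was too sparse to test. When each group 10 cell was set against 1 group 9 cell of like UMI count, the Top2a fold change was 1.23 with adjusted p = 0.018, so its call depends on which group 9 cells are used.

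Late-cycle genes took their highest share of a cell's UMIs in group 10, and genes of licensing and replication took theirs in group 9. Shares were counted after each cell with at least 1000 UMIs was thinned to 1000, which kept 30 cells of group 10, 178 of group 9 and 817 of groups 1 to 8. The 5 lists of G2 and mitosis genes together made up 3.79%, 4.32%, 5.31% and 6.05% in group 10, against 2.41%, 2.78%, 2.84% and 3.13% in group 9. Every plate of group 10 lay above every plate of group 9. The means were 4.87% ± 1.01 in group 10 and 2.79% ± 0.300 in group 9 (SD over 4 plates), beside 1.36% in groups 1 to 8 pooled. Without thinning the means were 4.30% ± 0.768 in group 10 and 2.75% ± 0.278 in group 9.

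For origin licensing and the replication fork together, the shares were 0.555%, 1.08%, 0.725% and 0.617% in group 10, against 1.47%, 1.49%, 1.70% and 1.64% in group 9. Group 9 was higher on every plate and the groups did not overlap. The mean in group 10, 0.744%, was close to the 0.704% of groups 1 to 8. Among single groups, group 10 at 0.744% (plates 0.555 to 1.08%) overlapped each of groups 1 to 8 over its plates. Group 9 at 1.57% (plates 1.47 to 1.70%) was followed by group 8 at 1.19% (plates 0.746 to 1.51%).

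Replication-dependent histones took 0.817% ± 0.457 in group 10 and 0.704% ± 0.326 in group 9, beside 0.172% in groups 1 to 8. Here the plates of groups 10 and 9 overlapped, and without thinning the order of the means turned, with 0.683% ± 0.313 in group 10 and 0.705% ± 0.356 in group 9. None of the 7 histone genes tested passed in either direction, and their median log2 fold change was -0.10. With group 9 matched on UMIs per cell the histone median was 1.06. Without plate 3, 1 histone gene passed.

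**Figure D1:**
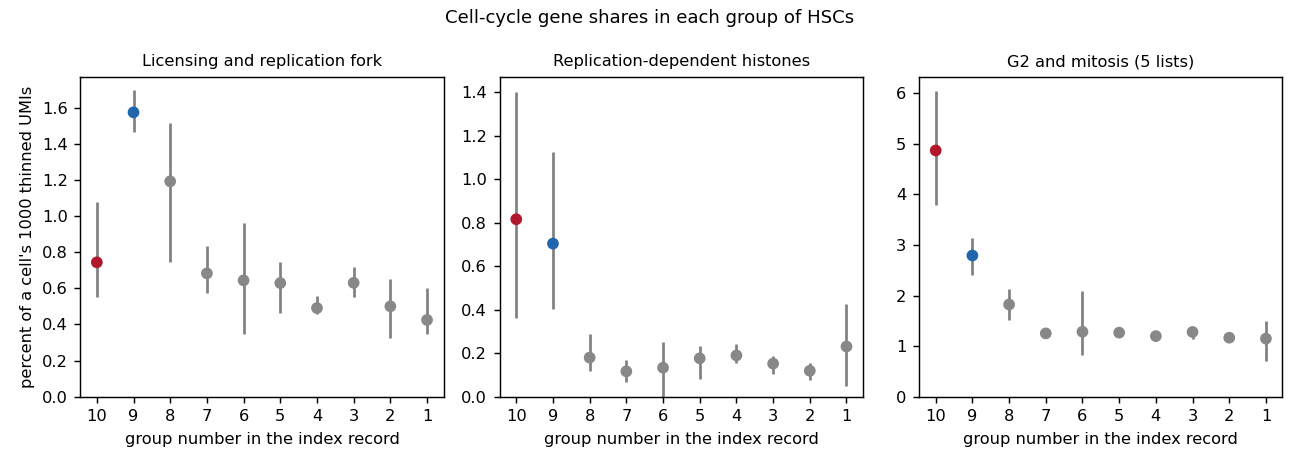
Share of a cell's UMIs, after thinning to 1000, from licensing and fork genes, from replication-dependent histones and from 5 lists of G2 and mitosis genes, by group number; points are means of the plate means and lines run from the lowest to the highest plate. By mean, group 10 (red) is highest for G2 and mitosis genes and group 9 (blue) for licensing and fork genes. The means of both stand above those of groups 1 to 8 (grey) for histones. Plate ranges overlap between group 1 and both groups for histones, and between groups 8 and 9 for licensing and fork genes.

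Over all genes, 63 of 1305 tested were higher in group 10 (4.83% of those tested) and 42 were lower (3.22%), which makes 105 or 8.05% in either direction, by edgeR's quasi-likelihood test with plate as a block and a Benjamini-Hochberg adjusted p below 0.05. If the group number was made from these UMIs, such calls describe how steady a difference is over plates and are no independent evidence for the groups. Genes named as highest or lowest had to go 1 way on all plates, which favours genes whose groups do not overlap. The share of all tested genes without overlap was not counted, so lack of overlap below is description only. Of the 63 higher genes, 28 belong to the G2 and mitosis lists, and of the 42 lower genes, 13 belong to the licensing and fork lists. The filter on low counts kept 59 of 169 G2 and mitosis genes and 28 of 76 licensing and fork genes, so most members could not be tested. A gene low in 1 group could enter the test only through the other group, and could then come out higher only there. Nothing is therefore read from the counts or medians of the cycle lists below. Without plate 2, 44 genes were higher and 19 lower, and 54 of the 105 genes passed again. DESeq2 called 40 higher and 16 lower. Median UMIs per cell were 1459 in group 10 and 2340.5 in group 9. The log2 ratio of these medians within a plate averaged -0.39 ± 0.54 (SD, n = 4 plates, lower in 3, exact permutation p = 0.25, two-sided, flipping signs over plates).

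Of the spindle, microtubule and cytokinesis genes, 12 of 17 tested were higher in group 10 and none was lower; 4.83% of all genes tested were higher. Group 10 was singled out for its share of G2 and mitosis genes, so nothing is read from the counts of these lists against that background, and their p-values describe how steady each difference was over plates. The median of the 17 was 1.78 on the log2 scale, and that of all tested genes was -0.0033. Fam83d, Ckap2, Tpx2 and Kif22 passed the filter on low counts through group 10 alone, so nothing is read from the 2 medians side by side. Tpx2, which activates the Aurora A kinase on spindle microtubules, had 584, 650.3, 180.3 and 566 CPM in group 10, against 86.1, 136, 141 and 124 CPM in group 9 (log2 fold change 2.06 ± 0.41 (SE), adjusted p = 0.0029). Its group 10 value on plate 4 was low yet still above every group 9 plate; without plate 2 the fold change was 1.73 with adjusted p = 0.072. Kif22, a motor protein that pushes chromosome arms from the pole, had 809, 289, 451 and 360.0 CPM in group 10, against 79.4, 146, 50.5 and 159 CPM in group 9 (log2 fold change 2.28 ± 0.45 (SE), adjusted p = 0.0026). Here plate 2 was the highest of group 10, and without it the value was 1.75 with adjusted p = 0.098.

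Fam83d, which brings a kinase to the spindle, gave 20 UMIs in group 10 and 3 in group 9. Summed over plates, the ratio of its levels was 40.0 (exact interval 11.9 to 210.2), an interval for counting error only. Fam64a had 404, 289, 361 and 771 CPM in group 10, against 26.5, 136, 70.7 and 97.1 CPM in group 9 (log2 fold change 2.62 ± 0.46 (SE), adjusted p = 0.001). Ckap2, a microtubule-associated protein, had 225, 217, 316 and 257 CPM in group 10, against 79.4, 87.4, 20.2 and 44.1 CPM in group 9 (log2 fold change 2.21 ± 0.54 (SE), adjusted p = 0.013). The groups did not overlap for either gene. The Ckap2 call was lost without plate 4, with 1.72 with adjusted p = 0.1.

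Of the 3 tubulins of the list that were tested, 1 passed. Tuba1c had 899, 578, 902 and 926 CPM in group 10, against 225, 262, 263 and 274 CPM in group 9 (log2 fold change 1.78 ± 0.25 (SE), adjusted p = 1.6e-04), with little spread in group 9 and a low plate 3 in group 10. Tuba1b had 2999.7 ± 349 CPM in group 10, 3405 ± 176 CPM in group 9 and 1365 ± 145 CPM in groups 1 to 8 (SD over 4 plates), and the change between groups 10 and 9 was -0.13 with adjusted p = 0.57. Tubb5, a beta tubulin, likewise did not pass (0.24, adjusted p = 0.28). Tubulin genes are close in sequence, and no source used here says how reads were shared between them. Arl6ip1, a protein of the endoplasmic reticulum membrane, had 809, 506, 947 and 874 CPM in group 10, against 225, 214, 232 and 203 CPM in group 9 (log2 fold change 1.92 ± 0.27 (SE), adjusted p = 1.6e-04). Its level in group 9 was near the 214 CPM of groups 1 to 8. The other spindle genes that passed were Racgap1 (1.98, adjusted p = 0.0016), Nusap1 (1.88, adjusted p = 0.0093), Tacc3 (1.75, adjusted p = 0.014), Kif11 (1.58, adjusted p = 0.0036) and Ckap2l (1.47, adjusted p = 0.022), all log2 fold changes. Some of these rested on single plates: Nusap1 was 1.75 with adjusted p = 0.061 without plate 4, Tacc3 was 1.76 with adjusted p = 0.054 without plate 2 and 1.25 with adjusted p = 0.21 without plate 5, and Ckap2l was 1.27 with adjusted p = 0.1 without plate 2 and 1.06 with adjusted p = 0.2 without plate 4. Without plate 2, 8 spindle genes passed. In cells thinned to 1000 UMIs the filter left 3 spindle genes to test, of which 0 passed, with a median of -0.11, and with group 9 matched on UMIs per cell it left 5, of which 2 passed, with a median of 0.27.

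For the anaphase promoting complex and its checkpoint, 3 of 7 tested genes were higher and none was lower. Cdc20, the activator that opens the complex to its mitotic targets, had 359.5, 289, 406 and 566 CPM in group 10, against 13.2, 68.0, 30.3 and 52.9 CPM in group 9 (log2 fold change 3.41 ± 0.50 (SE), adjusted p = 1.7e-04). Ube2c, the enzyme that hands ubiquitin to the complex, had 1168, 1445, 1442 and 2211 CPM in group 10, against 99.3, 214, 141 and 388 CPM in group 9 (log2 fold change 3.01 ± 0.24 (SE), adjusted p = 1.2e-07). Bub1b, which encodes the checkpoint kinase BubR1, had 584, 361, 541 and 309 CPM in group 10, against 185, 155, 111 and 141 CPM in group 9 (log2 fold change 1.67 ± 0.37 (SE), adjusted p = 0.0063). In all 3 the groups stood apart on every plate. The Bub1b call was lost without plate 2 (1.62 with adjusted p = 0.086) and without plate 4 (1.37 with adjusted p = 0.063). The subunits of the complex itself that could be tested did not pass: Anapc5 was at 0.13, Anapc13 at 0.11 and Anapc11 at -0.10 on the log2 scale.

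Single cells show how often Ube2c and Cdc20 were found. With cells thinned to 1000 UMIs, at least 1 Ube2c UMI was found in 60% (interval 40.6 to 77.3%) of group 10 cells, 8.99% (interval 5.23 to 14.2%) of group 9 cells and 3.55% (interval 2.39 to 5.06%) of cells in groups 1 to 8, with exact binomial intervals that cover counting error only. For Cdc20 the shares were 30% (interval 14.7 to 49.4%) of group 10 cells, 5.06% (interval 2.34 to 9.38%) of group 9 cells and 1.71% (interval 0.940 to 2.86%) of cells in groups 1 to 8. Median depth before thinning was 2187 UMIs in group 10, 2458 in group 9 and 1419 in groups 1 to 8. Without thinning the Ube2c shares were 64.3% in group 10, 21.8% in group 9 and 4.50% in groups 1 to 8.

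Of the mitotic cyclins, kinases and phosphatases, 2 of 5 tested genes were higher. Ccnb2, a B-type cyclin that drives entry into mitosis, had 449, 217, 1082 and 1131 CPM in group 10, against 46.3, 97.2, 90.9 and 221 CPM in group 9 (log2 fold change 2.75 ± 0.39 (SE), adjusted p = 1.6e-04). Group 10 was above group 9 on each plate, and its lowest value, on plate 3, lay just under the highest of group 9, on plate 5. The entry for Plk1, the kinase of centrosome and kinetochore maturation, also holds Dctn5 and had 674, 795, 316 and 514 CPM in group 10, against 86.1, 185, 162 and 247 CPM in group 9 (log2 fold change 1.84 ± 0.38 (SE), adjusted p = 0.0036). The Plk1 call was lost without plate 2 (1.42 with adjusted p = 0.067). Cdk1, the kinase partner of cyclin B, was higher in group 10 on 4 of 4 plates and did not pass (0.69, adjusted p = 0.23). Several of the best known mitotic genes were too sparse to test. Ccnb1 had 8 UMIs in group 10 and 3 in group 9, Aurka had 23 UMIs in group 10 and 18 in group 9, Cdc25b had 18 UMIs in group 10 and 16 in group 9, and Cdc25c had 12 UMIs in group 10 and 12 in group 9, out of 77722 UMIs in group 10 and 466278 in group 9.

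At the centromere and kinetochore, 4 of 11 tested genes were higher and none was lower. Cenpf, a kinetochore protein that is made in G2 and destroyed after mitosis, had 674, 795, 676 and 1029 CPM in group 10, against 33.1, 87.4, 111 and 106 CPM in group 9 (log2 fold change 3.33 ± 0.36 (SE), adjusted p = 1.2e-05). Cenpa, the histone H3 form that marks centromeres, had 1303, 217, 1127 and 771 CPM in group 10, against 86.1, 107, 90.9 and 97.1 CPM in group 9 (log2 fold change 3.22 ± 0.39 (SE), adjusted p = 3.9e-05). Both were separate on every plate, although Cenpa varied several-fold within group 10. Birc5 and Cdca8 encode survivin and borealin, 2 subunits of the complex that carries Aurora B. Birc5 had 719, 217, 902 and 771 CPM in group 10, against 205, 185, 172 and 300.0 CPM in group 9 (log2 fold change 1.69 ± 0.32 (SE), adjusted p = 0.0022), and its plate 3 value in group 10 lay inside the range of group 9. Cdca8 had 629, 434, 1352 and 823 CPM in group 10, against 238, 291, 232 and 344 CPM in group 9 (log2 fold change 1.63 ± 0.29 (SE), adjusted p = 0.0013), with no overlap. Spc24, of the outer kinetochore, was level between the groups (-0.047, adjusted p = 0.95) and above the 78.9 CPM of groups 1 to 8 in both, with 378 CPM in group 10 and 404 CPM in group 9.

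Chromosome structure was split. Of 19 tested genes 7 were higher, none was lower and the median was 0.35. Hmgb2, a chromatin protein that bends DNA, had 1079, 2818, 1938 and 1697 CPM in group 10, against 556, 942, 778 and 847 CPM in group 9 (log2 fold change 1.29 ± 0.18 (SE), adjusted p = 1.5e-04). The entry for the histone variant H2afz, which also holds H2afv, had 1932, 3035, 2119 and 2417 CPM in group 10, against 1238, 1205, 1182 and 1068 CPM in group 9 (log2 fold change 1.05 ± 0.15 (SE), adjusted p = 1.6e-04). The groups did not overlap for either. The H2afz call was lost in cells thinned to 1000 UMIs, where the fold change was 0.62 with adjusted p = 0.26. The others that passed were Mki67 (1.94, adjusted p = 0.0021), the proliferation antigen that coats mitotic chromosomes; Smc4 (1.56, adjusted p = 0.02) and Ncapd2 (1.43, adjusted p = 0.0092), subunits of condensin; Rad21 (1.53, adjusted p = 0.0092), of cohesin; and H2afx (1.11, adjusted p = 0.0036). Smc4 was 1.30 with adjusted p = 0.19 without plate 2 and 1.29 with adjusted p = 0.082 without plate 5, and Rad21 was 1.41 with adjusted p = 0.089 without plate 2. The paralogs Hmgb1 (-0.51) and Hmgb3 (-0.026) and the cohesin genes Smc1a (0.35) and Smc3 (-0.17) did not pass (log2 fold changes).

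**Figure D2:**
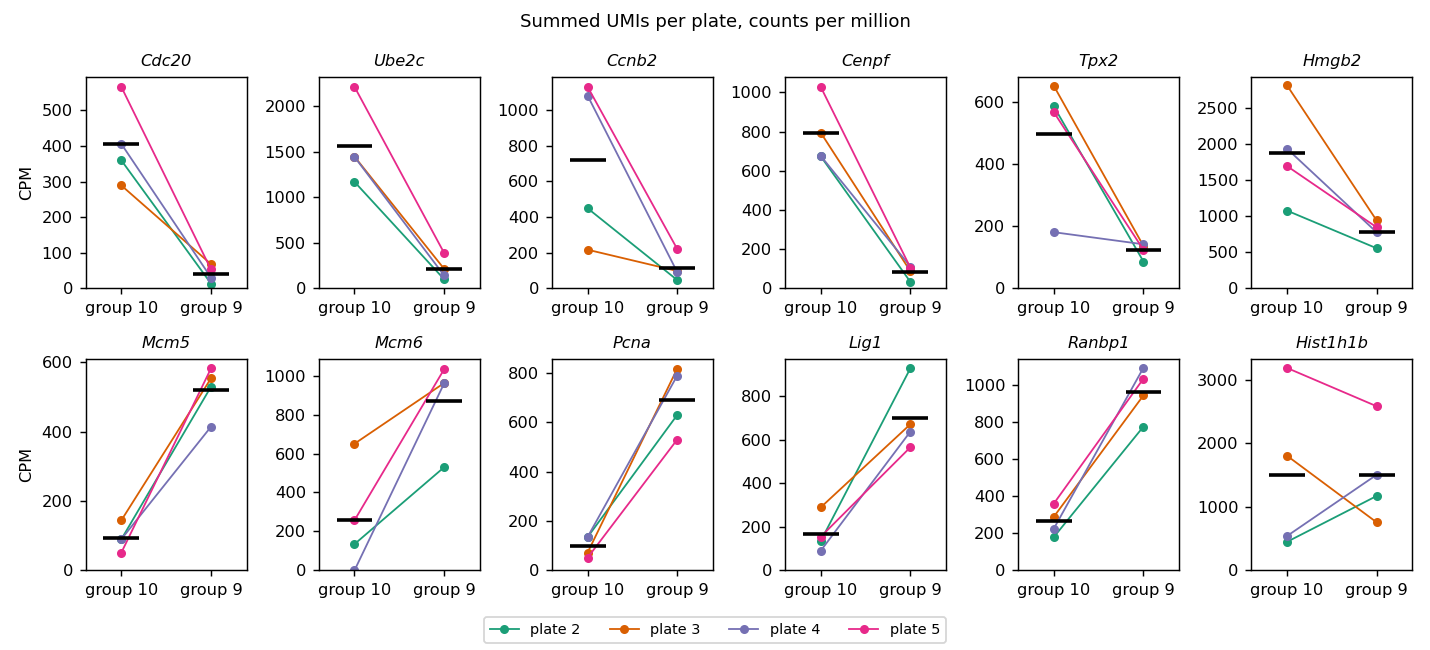
CPM of 12 genes from UMIs summed per plate, in group 10 (left) and group 9 (right); coloured points joined by a line are the same plate and black bars are means of 4 plates. The upper row was higher in group 10 on every plate, the lower row up to Ranbp1 was lower on every plate, and Hist1h1b went either way.

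On the other side, genes of origin licensing and entry into S phase were lower in group 10 for 6 of 9 tested, and 3.22% of all tested genes were lower. None was higher, and the median was -1.81. Mcm2, Cdt1, Mcm5 and Uhrf1 passed the filter on low counts through group 9 alone, so they could only come out lower. The count and median of this list are given as description. Mcm5, a subunit of the replicative helicase, had 89.9, 145, 90.2 and 51.4 CPM in group 10, against 529.6, 554, 414 and 582 CPM in group 9 (log2 fold change -2.42 ± 0.41 (SE), adjusted p = 7.1e-04). Mcm6, a second subunit, had 135, 650.3, 0 and 257 CPM in group 10, against 529.6, 962, 959.9 and 1032 CPM in group 9 (log2 fold change -1.88 ± 0.40 (SE), adjusted p = 0.0051). Group 10 was lower on each plate for both, and for Mcm6 its plate 3 value reached into the range of group 9; DESeq2 gave Mcm6 an adjusted p = 0.11. Mcm2 gave 3 UMIs in group 10 and 181 in group 9, a ratio of levels of 0.0994 (exact interval 0.0203 to 0.295). Cdt1, which loads the helicase and is destroyed once replication begins, gave 2 UMIs in group 10 and 107 in group 9, a ratio of 0.112 (exact interval 0.0134 to 0.415). The fitted Cdt1 value without plate 2 was -2.35 with adjusted p = 0.15, against adjusted p = 0.017 with all plates.

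The remaining helicase genes did not pass. Mcm7 had 135, 723, 90.2 and 309 CPM in group 10, against 589, 602, 616 and 565 CPM in group 9 (log2 fold change -1.04 ± 0.37 (SE), adjusted p = 0.1), and without plate 3, where it was high in group 10, the value was -1.74 with adjusted p = 5.3e-04. Mcm3 had 135, 145, 0 and 360.0 CPM in group 10, against 364, 301, 333 and 353 CPM in group 9 (log2 fold change -1.08 ± 0.48 (SE), adjusted p = 0.21), and without plate 5 the value was -1.89 with adjusted p = 0.04. Of the untested members, Mcm4 had 4 UMIs in group 10 and 116 in group 9. Cdc6, Orc1, Ccne1, Ccne2, Gins2, Gins3 and Ung had 0 UMIs in group 10, which at 77722 UMIs allows up to 3 counts each. In group 9, with 466278 UMIs, no member of the list had 0 UMIs. A few counts there can go with 0 in group 10, so nothing is read from these zeros. Uhrf1, which guides maintenance methylation of DNA, and Cdca7 passed with log2 fold changes of -1.71 (adjusted p = 0.017) and -1.81 (adjusted p = 0.034). Uhrf1 was -1.81 with adjusted p = 0.09 without plate 2 and -1.59 with adjusted p = 0.054 without plate 5. Cdca7 was -1.59 with adjusted p = 0.16 without plate 2, -1.61 with adjusted p = 0.082 without plate 4 and -1.60 with adjusted p = 0.081 without plate 5. Without plate 2 the licensing genes that passed numbered 3, and with DESeq2 the number was 1.

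Replication fork and nucleotide supply followed, with 7 of 19 tested genes lower, none higher and a median of -1.10. Pcna and Usp1 likewise entered the test through group 9 alone, so these numbers too are description. Pcna, the sliding clamp of the polymerases, had 135, 72.3, 135 and 51.4 CPM in group 10, against 629, 816, 788 and 529 CPM in group 9 (log2 fold change -2.65 ± 0.37 (SE), adjusted p = 1.6e-04). Lig1, the ligase that joins Okazaki fragments, had 135, 289, 90.2 and 154 CPM in group 10, against 927, 670.4, 637 and 565 CPM in group 9 (log2 fold change -2.10 ± 0.35 (SE), adjusted p = 6.7e-04). Rfc2, of the clamp loader, had 44.9, 289, 90.2 and 0 CPM in group 10, against 503, 651, 536 and 618 CPM in group 9 (log2 fold change -2.56 ± 0.46 (SE), adjusted p = 0.0014). No plate of group 10 reached the range of group 9 in these 3 genes, which were named in part for being lower on all plates. For nucleotide supply, Dut had 135, 434, 135 and 103 CPM in group 10, against 662, 651, 637 and 688 CPM in group 9 (log2 fold change -1.78 ± 0.36 (SE), adjusted p = 0.0029) and Dctpp1 had 179.8, 506, 361 and 154 CPM in group 10, against 966, 709, 839 and 882 CPM in group 9 (log2 fold change -1.52 ± 0.32 (SE), adjusted p = 0.0036). The groups did not overlap for Dut or Dctpp1, and the Dctpp1 call was lost without plate 2 (-1.28 with adjusted p = 0.057). Dnmt1, the maintenance DNA methyltransferase, had 315, 434, 316 and 360.0 CPM in group 10, against 867, 738, 657 and 865 CPM in group 9 (log2 fold change -1.10 ± 0.26 (SE), adjusted p = 0.012), a call that was lost without plate 2 (-1.01 with adjusted p = 0.072). Usp1, which removes ubiquitin from Pcna, gave 3 UMIs in group 10 and 116 in group 9, a ratio of 0.155 (exact interval 0.0315 to 0.465); its adjusted p was 0.021 with all plates and 0.051 without plate 2. With cells thinned to 1000 UMIs, 1 gene of this list passed, and without plate 2, 4 passed.

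The whole lists were also set beside the other HSCs. The licensing share was 0.200% in group 10, 0.539% in group 9 and 0.249% in groups 1 to 8, and the fork share was 0.544% in group 10, 1.04% in group 9 and 0.455% in groups 1 to 8. Pcna had 98.4 ± 43.1 CPM in group 10, 691 ± 135 CPM in group 9 and 266 ± 50.1 CPM in groups 1 to 8 (SD, n = 4 plates each). Mcm5 had 94.0 ± 38.3 CPM in group 10, 520.0 ± 73.7 CPM in group 9 and 248 ± 52.7 CPM in groups 1 to 8. The comparison with groups 1 to 8 was not tested. At least 1 Pcna UMI was found in 13.3% (interval 3.76 to 30.7%) of group 10 cells, 50.6% (interval 43.0 to 58.1%) of group 9 cells and 22.9% (interval 20.0 to 25.9%) of cells in groups 1 to 8, after thinning. Without thinning the Pcna shares were 19.0% in group 10, 68.6% in group 9 and 24.4% in groups 1 to 8.

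**Figure D3:**
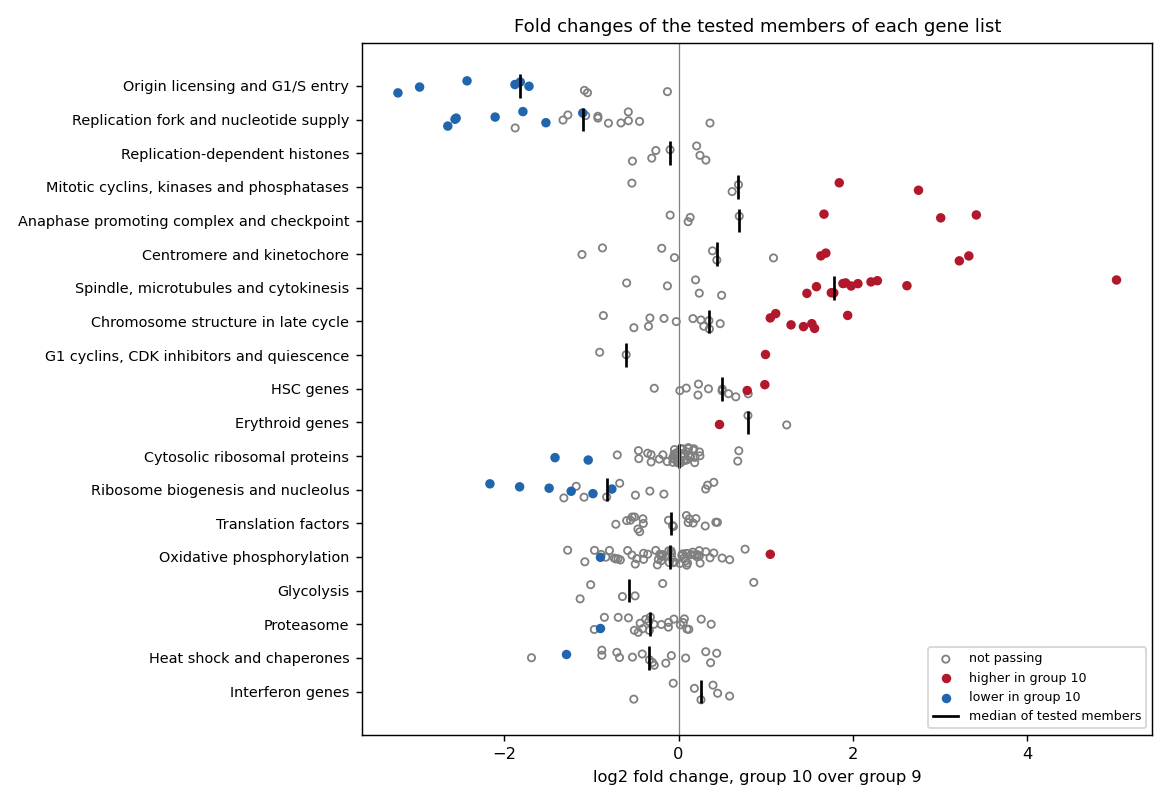
Log2 fold change, group 10 over group 9, of each tested member of the gene lists with at least 3 tested members; filled points passed at an adjusted p below 0.05 (red higher, blue lower in group 10), open points did not, and black bars are medians. Red points gather in the G2 and mitosis lists. Blue points gather in the licensing and fork lists and in the ribosome biogenesis and nucleolus list, which also holds Ranbp1 and Srm.

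The start sites of 4 higher genes and 2 lower ones show how the letters known from cell-cycle promoters are laid out. Genes of G2 and mitosis are known for a CHR element, often next to CCAAT boxes, and genes of G1 and S phase for E2F sites. The 150 bases before each start are printed from RefSeq (GRCm38.p6), 5′ to 3′ on the gene's strand, with motif letters in capitals: CCAAT, the CHR letters TTTGAA or TTCGAA, and the E2F letters TTTGGCGC, TTTCGCGC, TTTCCCGC or TTTGCCGC, each read on both strands. Overlapping matches run together.
Cdc20, higher (chr4:118437344-118437493, minus strand): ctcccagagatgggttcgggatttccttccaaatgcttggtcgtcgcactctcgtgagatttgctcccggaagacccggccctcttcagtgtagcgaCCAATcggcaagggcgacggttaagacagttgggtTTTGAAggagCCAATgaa
Ube2c, higher (chr2:164769779-164769928, plus strand): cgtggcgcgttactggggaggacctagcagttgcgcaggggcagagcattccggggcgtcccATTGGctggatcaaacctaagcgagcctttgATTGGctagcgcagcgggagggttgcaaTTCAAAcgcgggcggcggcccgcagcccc
Ccnb2, higher (chr9:70421555-70421704, minus strand): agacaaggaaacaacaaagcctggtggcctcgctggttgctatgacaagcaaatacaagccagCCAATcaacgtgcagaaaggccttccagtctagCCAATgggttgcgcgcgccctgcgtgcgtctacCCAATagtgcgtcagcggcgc
Hmgb2, higher (chr8:57511693-57511842, plus strand): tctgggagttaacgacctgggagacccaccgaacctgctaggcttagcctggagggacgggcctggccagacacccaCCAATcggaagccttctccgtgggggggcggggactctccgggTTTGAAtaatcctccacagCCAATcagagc
Mcm5, lower (chr8:75109359-75109508, plus strand): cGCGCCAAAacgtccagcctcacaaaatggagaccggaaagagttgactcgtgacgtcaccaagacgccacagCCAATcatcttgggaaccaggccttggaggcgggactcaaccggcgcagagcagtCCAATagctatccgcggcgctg
Mcm6, lower (chr1:128359706-128359855, minus strand): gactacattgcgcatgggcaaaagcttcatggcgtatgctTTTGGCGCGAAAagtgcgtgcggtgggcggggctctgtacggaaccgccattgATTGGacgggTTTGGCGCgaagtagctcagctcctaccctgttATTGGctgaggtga

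Cdc20, Ube2c and Hmgb2 each carry a CHR and 2 CCAAT boxes in this window, Ccnb2 carries 3 CCAAT boxes, and Mcm5 and Mcm6 carry E2F letters and 2 CCAAT boxes each. The printed genes were picked by hand and do not stand for all called genes. RefSeq promoters were matched for 50 of the 63 higher genes (68 promoters) and for 37 of the 42 lower genes (44 promoters). In the 250 bases before the start, a CHR and a CCAAT together were found in 17.6% of the promoters of higher genes, 9.09% of those of lower genes and 6.02% of all 32851 promoters. E2F letters were found in 5.88% of the promoters of higher genes, 20.5% of lower and 1.86% of all. Counted by gene, 14 of the 50 matched higher genes had CHR letters and 9 of the 37 matched lower genes had E2F letters. Among those without were Cenpf, Cenpa and Plk1 for CHR, and Pcna, Lig1 and Dut for E2F. The CHR letters alone were about as common in each set, at 20.6% of higher, 15.9% of lower and 17.1% of all promoters. CCAAT letters, with or without a CHR, were found in 57.4% of higher, 52.3% of lower and 33.8% of all promoters. They were thus more common in both called sets than in all promoters. All promoters here include those of genes that were not tested. These are counts of letters, and binding was not measured.

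Outside the cycle lists, a list named for ribosome biogenesis and the nucleolus had 6 of 17 tested genes lower in group 10. This stood beside 3.22% of all genes tested, and the list had a median of -0.82 and none higher. Srm and Nolc1 passed the filter on low counts through their group 9 levels, so nothing is read from the count or the median. The list is wider than its name: Ranbp1, Srm, Nme1 and Nme2 are among the 6. Ranbp1, a regulator of the Ran cycle that moves cargo through nuclear pores, had 179.8, 289, 225 and 360.0 CPM in group 10, against 775, 942, 1091 and 1032 CPM in group 9 (log2 fold change -1.82 ± 0.27 (SE), adjusted p = 2.2e-04). Srm, the enzyme that makes spermidine, had 89.9, 289, 90.2 and 103 CPM in group 10, against 635, 593, 728 and 485 CPM in group 9 (log2 fold change -2.16 ± 0.38 (SE), adjusted p = 0.001). Ncl, the nucleolar protein nucleolin, had 1168, 1517, 1172 and 2057 CPM in group 10, against 2681, 2293, 2738 and 2577 CPM in group 9 (log2 fold change -0.76 ± 0.16 (SE), adjusted p = 0.0036). In all 3 the groups were apart. Nolc1 (-1.48, adjusted p = 0.024), Nme1 (-1.23, adjusted p = 0.012) and Nme2 (-0.98, adjusted p = 0.016) also passed on the log2 scale. The Nolc1 call was lost without plate 2 (-1.25 with adjusted p = 0.16), and the Nme2 call was lost without plate 2 (adjusted p = 0.066) and without plate 4 (-0.91 with adjusted p = 0.059). The list's share of a cell's UMIs was 0.557% ± 0.0153 in group 10 and 1.04% ± 0.0439 in group 9, beside 0.753% in groups 1 to 8.

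Other genes with the lowest fold changes were Mat2a, which makes the methyl donor S-adenosylmethionine, Hnrnpab, an RNA-binding protein, and Dtymk, a thymidylate kinase. Mat2a had 135, 72.3, 90.2 and 51.4 CPM in group 10, against 291, 554, 626 and 521 CPM in group 9 (log2 fold change -2.35 ± 0.43 (SE), adjusted p = 0.0016). Hnrnpab and Dtymk had log2 fold changes of -1.87 (adjusted p = 0.0036) and -1.85 (adjusted p = 0.013), and the Dtymk call was lost without plate 2 (-1.58 with adjusted p = 0.098). For all 3 the groups did not overlap.

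For protein making and energy, counts are set beside the 4.83% higher and 3.22% lower of all genes tested, and with so few calls nothing is read from them about the lists. Of 45 ribosomal protein genes tested, 2 were lower, none was higher and the median was 0.0027. One that passed was Rpl37 (-1.04, adjusted p = 0.014), which was -0.96 with adjusted p = 0.061 without plate 4. None of 20 translation factors passed, and 2 did without plate 5. Of 60 oxidative phosphorylation genes, Ndufa6 was higher (1.05), Atp5g3 was lower (-0.89, or -0.69 with adjusted p = 0.17 without plate 2) and the median was -0.10. None of 6 glycolysis genes passed, with a median of -0.57. Ldha, lactate dehydrogenase, came nearest (-1.01, adjusted p = 0.051), and without plate 4 it was -1.53 with adjusted p = 0.0012. Psma7 (-0.90) was the single lower gene of 25 for the proteasome, and Hsp90aa1 (-1.29) of 17 for chaperones, and neither list had a higher gene. The Psma7 call was lost on leaving out plate 2 (-0.91 with adjusted p = 0.12), plate 3 (-0.93 with adjusted p = 0.05) or plate 4 (-0.83 with adjusted p = 0.16), and the Hsp90aa1 call without plate 5 (-1.10 with adjusted p = 0.098).

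Of 13 genes of the HSC state tested, 2 passed as higher, beside 4.83% of all genes tested, and the median was 0.50. Without the filter on low counts the median of the list was negative, so no shift of the whole list is read from it. Lmo2, a transcription cofactor that stem cells need, had 854, 1228, 1533 and 977 CPM in group 10, against 688, 670.4, 728 and 653 CPM in group 9 (log2 fold change 0.79 ± 0.21 (SE), adjusted p = 0.02), with no overlap. Txnip, which restrains glucose uptake and is high in resting HSCs, had 629, 1589.6, 766 and 977 CPM in group 10, against 397, 427, 647 and 512 CPM in group 9 (log2 fold change 0.99 ± 0.25 (SE), adjusted p = 0.017), and its lowest group 10 value lay inside the range of group 9. The Lmo2 call was lost without plate 4 (0.56 with adjusted p = 0.23), and the Txnip call without plate 2 (1.05 with adjusted p = 0.064) and without plate 3 (0.63 with adjusted p = 0.15). Over 4 plates Lmo2 had 1148 ± 300.0 CPM in group 10, 685 ± 31.9 CPM in group 9 and 857 ± 78.8 CPM in groups 1 to 8 (SD). Txnip had 991 ± 424 CPM in group 10, 496 ± 112 CPM in group 9 and 1057 ± 221 CPM in groups 1 to 8, so group 10 was close to groups 1 to 8. The list's share of a cell's UMIs was 1.04% ± 0.101 in group 10 and 0.742% ± 0.0784 in group 9, beside 1.12% in groups 1 to 8. Txnip was also the single gene to pass of 3 tested on the list of G1 cyclins, CDK inhibitors and quiescence, where Ccnd2 (-0.90, adjusted p = 0.11) and Cdk4 (-0.60, adjusted p = 0.096), a cyclin and a kinase of G1, did not pass on the log2 scale. Kit, a receptor of this gate, had a log2 fold change of 0.66 and did not pass, and Slamf1, which encodes CD150, gave 1 UMI in group 10 and 11 in group 9.

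Markers of mature lymphoid cells, neutrophils, mast cells, macrophages, endothelium and stroma gave few UMIs in either group, and erythroid genes gave more. Cd48, against which the cells were gated, had 0 UMIs in group 10. Mature B, T and NK cell genes took 0.0316 to 0.0899% of UMIs over the plates of group 10 and 0.0475 to 0.0622% in group 9, with 10 of 17 measured genes at 0 in group 10, Cd3d and Cd4 among them. Neutrophil, mast cell and macrophage genes took 0.00899 to 0.0406% in group 10 and 0.00861 to 0.0556% in group 9, with 17 of 20 at 0 in group 10, S100a8 and Cpa3 among them. For endothelial and stromal genes the range was 0.00449 to 0.0206% in group 10 and 0.00291 to 0.0115% in group 9, with 10 of 12 at 0 in group 10. In group 9 these lists, in the order given, had 8, 11 and 9 genes at 0. Group 10 had 77722 UMIs in all and group 9 had 466278, so nothing is read from the zeros. Myeloid progenitor genes ranged over 0.145 to 0.256% in group 10 and 0.191 to 0.266% in group 9. For erythroid genes it was 0.351 to 0.505% in group 10 and 0.271 to 0.435% in group 9, and Car2, carbonic anhydrase, passed as higher (0.46, adjusted p = 0.026). Car2 alone had 256 UMIs in group 10 and 1138 in group 9. It was higher in 3 of 4 plates, and its call was lost without plate 2 (0.40 with adjusted p = 0.16) and without plate 4 (0.28 with adjusted p = 0.3). Multipotent progenitor genes ranged over 0.0674 to 0.108% in group 10 and 0.0525 to 0.0781% in group 9. Megakaryocyte genes ranged over 0.0361 to 0.140% in group 10 and 0.0688 to 0.0758% in group 9, and lymphoid progenitor genes ranged over 0.00449 to 0.0361% in group 10 and 0.0132 to 0.0185% in group 9.

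Interferon genes ranged over 0.315 to 0.665% in group 10 and 0.254 to 0.455% in group 9, and none of 7 tested passed (1 did without plate 4, and 1 without plate 5). Immediate early and stress genes ranged over 0.0411 to 0.139% in group 10 and 0.0414 to 0.0700% in group 9, and the 1 gene tested did not pass. Of the highest genes outside the lists, Sh2d3c, an adaptor protein, had 179.8, 289, 180.3 and 257 CPM in group 10, against 19.9, 19.4, 10.1 and 52.9 CPM in group 9 (log2 fold change 3.11 ± 0.61 (SE), adjusted p = 0.0026). Malat1 (1.76, adjusted p = 2.2e-04), a nuclear long non-coding RNA, and Pik3ip1 (1.95, adjusted p = 0.014), an inhibitor of PI3K, also passed (log2 fold changes). An entry with no gene name, AK012387, had 584, 578, 856 and 874 CPM in group 10, against 106, 155, 80.8 and 124 CPM in group 9 (log2 fold change 2.70 ± 0.35 (SE), adjusted p = 9.1e-05). Sh2d3c and AK012387 had no overlap between the groups.

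Within group 10 the cells were uneven. Ordered by their share of G2 and mitosis UMIs, not thinned, the widest gap lay between 1.94% and 2.99%, with 10 cells below it and 32 above. The split was chosen after the values were seen, so it is described and not tested. Of the 10 cells, 7 came from plate 2 and 3 from plate 5. They had a median of 797.5 UMIs and 8592 UMIs in all, while the 32 had a median of 2083 UMIs and 69130 in all. Cdc20, Ube2c, Ccnb2, Cenpf, Cenpa, Mki67, Tpx2 and Hmgb2 had 0 UMIs in the 10 cells. These genes belong to the lists that made the split, so low counts were set in advance. With 8592 UMIs in all, a gene of low level can also give 0. Other members of those lists did give UMIs in the 10 cells: Tuba1b 9, H2afz 7, Tubb5 6, and Plk1, Racgap1 and Smc4 2 each. For Hmgb2 the level in the 32 was 2011 CPM, and for Ube2c it was 1750.3 CPM.

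The 10 cells were set beside the other cells for further genes. Licensing and fork genes together made up a median 0.383% of their UMIs, 0.571% in the 32, 1.62% in group 9 and 0.512% in groups 1 to 8. Pooled histone shares were 0.291% in the 10, 0.812% in the 32, 0.797% in group 9 and 0.178% in groups 1 to 8. HSC genes made up 1.34% in the 10, 0.943% in the 32, 0.714% in group 9 and 1.15% in groups 1 to 8. Immediate early and stress genes made up 0.221% in the 10, 0.0752% in the 32, 0.0575% in group 9 and 0.0887% in groups 1 to 8, and interferon genes 0.815% in the 10, 0.427% in the 32, 0.375% in group 9 and 0.496% in groups 1 to 8. In the 10 cells these shares rest on 19 and 70 UMIs, and 10 of the 19 were of Nfkbia. Over all cells Nfkbia had 289, 191, 132 and 169 CPM, highest on plate 2, which gave 7 of the 10 cells. Cells at or above the upper edge of the gap, 2.99%, were 69 of the 188 in group 9 and 26 of the 1200 in groups 1 to 8.

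**Figure D4:**
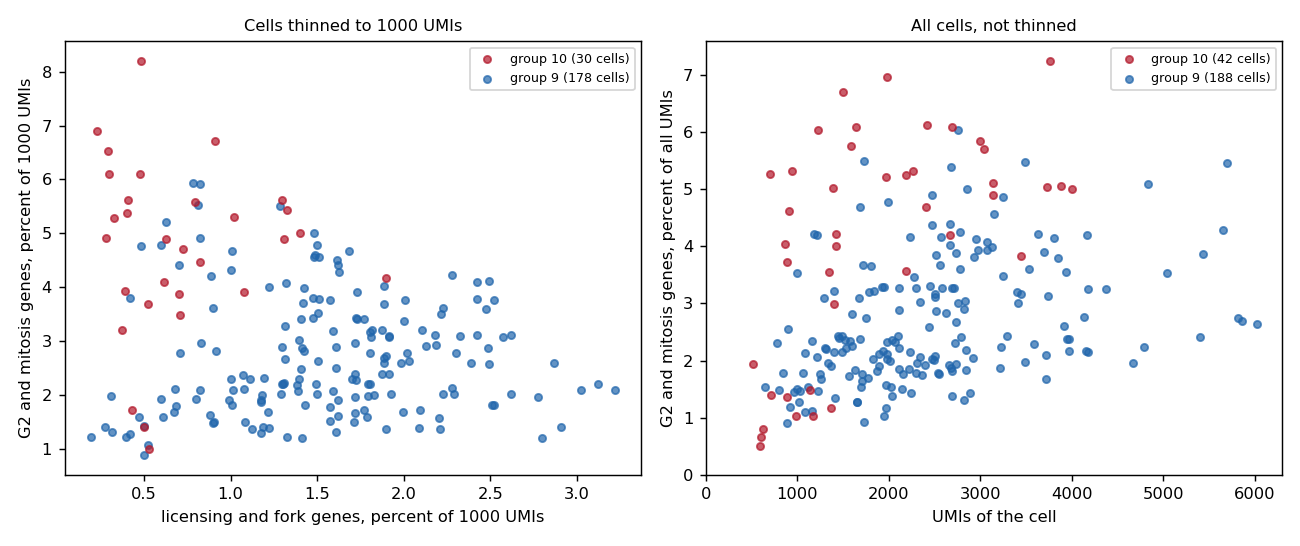
Each point is 1 cell of group 10 (red) or group 9 (blue); left, licensing and fork genes against G2 and mitosis genes as percent of 1000 thinned UMIs, with a small random offset; right, G2 and mitosis genes as percent of all UMIs against the UMIs of the cell. Most group 10 cells lie high and to the left, and 10 lie at or below 1.94% in the right panel.

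The cytometer values recorded for the same wells do not come from the UMIs. They were ranked within the plate from 0 to 100 over all its cells, and medians of the 2 groups were compared over 4 plates, for which the exact permutation test, two-sided and flipping signs, gives at best 2 of 16 sign patterns and so cannot pass the threshold. Side scatter area, which grows with granularity, had median ranks of 69.9, 88.1, 94.5 and 79.6 in group 10, against 66.7, 78.1, 72.4 and 76.0 in group 9. Side scatter width had 72.1, 78.3, 85.2 and 77.0 in group 10, against 67.3, 75.1, 67.2 and 69.4 in group 9. Both were higher in group 10 on 4 of 4 plates, by 9.73 ± 8.76 and 8.38 ± 6.63 ranks (SD, the smallest p the exact permutation test allows for each, adjusted over 14 channels 0.700).

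Forward scatter width, which tracks the breadth of a cell, had median ranks of 70.4, 90.6, 93.2 and 91.0 in group 10, against 70.4, 82.2, 77.6 and 73.2 in group 9. It was higher in group 10 on 3 plates and equal on plate 2 (mean difference 10.5 ± 8.06 ranks, exact permutation p = 0.25, adjusted 0.700). CFP had median ranks of 42.8, 87.0, 91.0 and 86.3 in group 10, against 78.8, 90.6, 89.0 and 87.6 in group 9. Group 10 was far lower on plate 2, where 7 of its 15 cells were below the gap described above, and within a few ranks of group 9 elsewhere. The 10 cells below the gap had a median CFP rank of 38.0 and a median forward scatter width rank of 55.1. The median CFP rank was 87.1 in the 32 above it, 86.2 in group 9 and 45.4 in groups 1 to 8. The median forward scatter width rank was 92.9 in the 32, 75.6 in group 9 and 44.7 in groups 1 to 8.

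**Figure D5:**
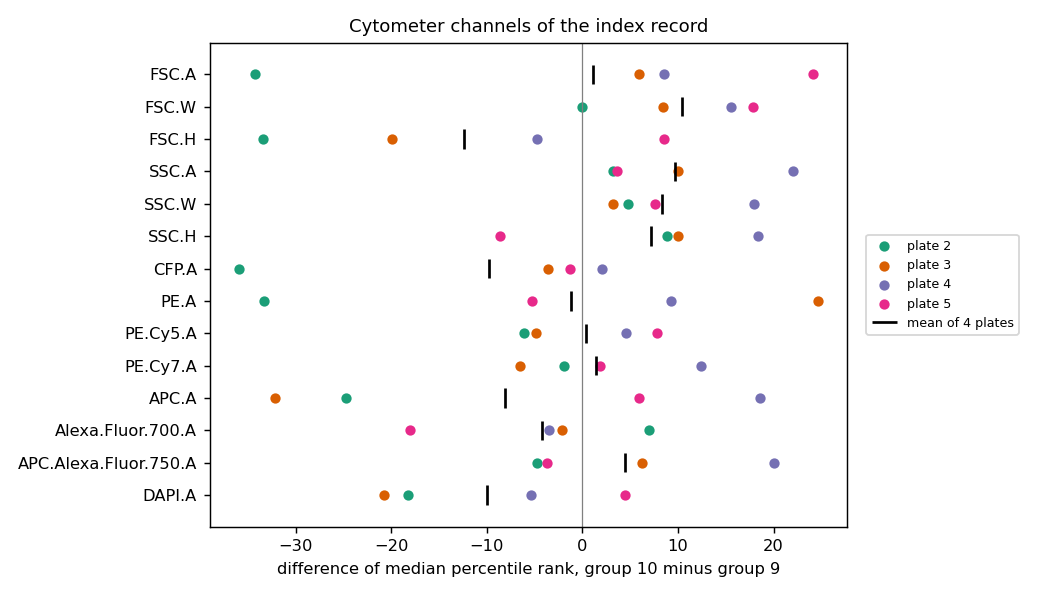
Difference between the median percentile ranks of group 10 and group 9 for 14 cytometer channels; coloured points are plates and black bars the mean of 4 plates. Side scatter area and width lie right of 0 on every plate. The CFP, PE, forward scatter area and forward scatter height values of plate 2 lie far to the left, as does the APC value of plate 3.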

How the data were processed

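UMI counts per gene and well were deposited by the authors, not normalized, for 27297 gene entries and 1536 wells. The authors' deposited index record covers 1430 wells, of 511 UMIs or more. Its deposited cytometer channels have no stated scale, hold spreadsheet errors in 4 of 14 channels, and were used as a score, by rank within a plate. Per the labels' protocols, index-sorted cells were reverse transcribed in wells holding barcoded primers, then pooled for amplification. The submitters' processing notes name, for the whole series and without roles, the builds mm10 and mm9 and tools that include STAR and featureCounts. How reads became UMIs is not stated in these sources.

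Counts were summed per plate and group and tested with edgeR 4.0.16 (R 4.3.3), with genes kept by filterByExpr, TMM scaling, a quasi-likelihood test and a block for plate, which both groups share. DESeq2 1.42.0 was an alternative. The 8 libraries held 8575 to 94601 UMIs in tested genes. The script was tested on simulated data. The groups, gene lists and naming rule were chosen with earlier results of these data known. The rule named the 3 markers, the 12 highest and 12 lowest genes past the threshold with 1 sign on all plates and at least 100 CPM, and up to 5 tested members of each list by level; other genes that passed were named after their values were seen. Shares used cells thinned to 1000 UMIs. Intervals are 95% and exact. No doublet caller was run, since wells were filled by sorting. Alternatives were other scaling, filters, cells and tests, no block, and each plate left out. Some single-gene results are not reported here.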

Additional observations from a re-analysis of the deposited data

Results flagged for a closer look

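In 208 sets of 4 plates, 15 held a plate whose distance to the next was a larger part of the range than Dixon's limit for 4 values. Chance flags about 1 set in 20. In group 10, forward scatter width on plate 2 had a median rank of 70.4 and CFP on plate 2 one of 42.8, both below the other plates. That plate of group 10 holds 7 of the 10 cells of low late-cycle share. Kit was high on plate 2 of group 10 at 584 CPM. On plate 3 of group 10, Tuba1c was low at 578 CPM, while Anapc5 at 1012, Cdca7 at 289, Dut at 434 and Srm at 289 CPM were high. On plate 4 of group 10, Smc4 was low at 135 CPM, and Ran at 902 and Nolc1 at 316 CPM were high. In group 9, plate 2 was low for Mcm6 at 529.6 CPM and for Hsp90aa1 at 19.9 CPM and high for Cdt1 at 291 CPM, and plate 5 was high for Kif11 at 318 CPM. The causes were not tested.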

How the results depend on the processing

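In tested genes, group 10 held 8575 to 13524 UMIs per plate, against 61988 to 94601 in group 9, and how the number of calls moves with depth at a fixed set of genes was not tested. Against 105 genes passing (63 higher and 42 lower), DESeq2 called 56 (40 and 16), the fit without the replicate block 69 (43 and 26), group 9 matched on UMIs per cell 41 (21 and 20 of 287 tested), and cells thinned to 1000 UMIs 18 (9 and 9 of 318 tested). With groups 1 to 8 added 197 (91 and 106 of 2885 tested) passed, and without a filter on low counts 286 (32 and 254 of 11517 tested), where the median of all genes was -0.69. Of the calls, 60% were higher, against 46.2% with groups 1 to 8 added, 11.2% without a filter, 50% in thinned cells and 71.4% with DESeq2. RLE size factors, library totals alone and cells of at least 1000 UMIs moved each count by less than 1.5 times. Leaving out a plate gave 63 to 124 calls, 44 to 64 higher and 19 to 60 lower, lowest without plate 2 in each case. List medians that moved by more than their spread were as follows. Without a filter the medians were -2.38 for licensing, -1.67 for the fork, 0.14 for mitotic kinases, 0.13 for the anaphase promoting complex, -0.12 for centromeres, 1.21 for the spindle, -0.23 for chromosome structure, -1.17 for G1 and quiescence, -0.095 for HSC genes, 0.22 for erythroid genes, -0.58 for ribosomal proteins, -1.41 for ribosome biogenesis, -0.67 for translation factors, -0.66 for oxidative phosphorylation, -1.17 for glycolysis, -0.87 for the proteasome, -0.91 for chaperones and -0.32 for interferon. With group 9 matched the medians were -1.66 for the fork, 1.06 for histones, 0.27 for the spindle, 1.17 for chromosome structure, -0.93 for glycolysis and -0.086 for the proteasome. In thinned cells the medians were -0.11 for the spindle, 0.62 for chromosome structure, -1.26 for ribosome biogenesis, 0.045 for oxidative phosphorylation, -0.26 for glycolysis and 0.075 for the proteasome. In cells of at least 1000 UMIs the medians were 0.46 for chromosome structure and 0.30 for HSC genes. With groups 1 to 8 added the medians were -0.11 for ribosomal proteins, -0.20 for translation factors and -0.21 for oxidative phosphorylation. Over the plates left out, medians ranged from -2.64 to -1.61 for licensing, 0.46 to 0.81 for the anaphase promoting complex, 0.23 to 0.91 for centromeres, 0.18 to 0.54 for chromosome structure, -0.22 to -0.11 for translation factors, -0.19 to -0.078 for oxidative phosphorylation, -0.93 to -0.26 for glycolysis, -0.60 to -0.20 for chaperones and -0.17 to 0.42 for interferon. Differences in share, group 10 minus group 9, that moved were -0.662 percentage points for the fork at 2000 UMIs (against -0.491), 0.216 percentage points for mitotic kinases without thinning (against 0.332), 0.285 percentage points for ribosomal proteins without thinning (against -0.760) and -1.38 percentage points for ribosomal proteins at 2000 UMIs (against -0.760). Rank differences that changed sign were FSC.A -3.55 by mean rank, FSC.A -6.31 with group 9 matched, CFP.A 3.19 with group 9 matched, PE.A 3.90 by mean rank, PE.A 1.33 ranked within groups 10 and 9, PE.Cy5.A -0.955 with group 9 matched, PE.Cy7.A -5.04 by mean rank and Alexa.Fluor.700.A 0.772 by mean rank. With a plate left out they ranged from -6.58 to 12.9 for FSC.A, -9.76 to 9.57 for PE.A, -2.12 to 2.52 for PE.Cy5.A, -2.19 to 4.15 for PE.Cy7.A, -7.90 to 0.462 for Alexa.Fluor.700.A and -0.760 to 7.53 for APC.Alexa.Fluor.750.A. Without a filter, Car2 was -0.12, Rplp1 was -0.55, Rps3 was -0.53, Rps14 was -0.52 and Rps9 was -0.46 on the log2 scale, each positive in the fit described. The cause was not tested. Of 1613 values of 136 genes under the alternatives, 1354 kept their direction and side of the threshold, 102 changed sign and passed in neither fit, 96 lost the call, 56 gained one and 5 changed sign with a call in at least 1 of the fits.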
